A study of Mus musculus with 16 samples.

Results

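Secreted growth factors of epithelial and vessel repair, encoded by 10 genes, were followed through 4 mononuclear phagocyte populations of the mouse. They are the epidermal growth factor receptor ligands Areg, Ereg, Hbegf and Tgfa, the vascular growth factors Vegfa and Vegfb, the platelet-derived growth factors Pdgfa and Pdgfb, insulin-like growth factor 1 (Igf1) and oncostatin M (Osm). The genes were taken by symbol from a count table of 45664 gene entries, which held all 10. Of these, 9 passed the filter on low counts and were tested among 15754 genes. Ereg did not pass and is described by its counts.

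The samples came from C57BL/6 mice aged 8 to 10 weeks, with 4 libraries each of cornea macrophages, retinal microglia, brain microglia and bone marrow monocytes; the labels name no treatment. Cornea cells were stained for CD45, CD11b, F4/80 and CD64 after collagenase D digestion at 37 °C. Retinal cells were stained for CD45 and CD11b after mechanical dissociation in cold buffer, and 10 mice were pooled for every cornea and every retina library. For brain and marrow samples the sources used here give neither handling nor pool size. The sort and population markers matched the names: Sall1, a transcription factor of microglia, averaged 540 and 688 CPM (read counts scaled to a common library size with TMM factors) in retinal and brain microglia and under 0.1 CPM in the others, Ly6c2 averaged 2464 CPM in monocytes, and Mrc1 averaged 1553 CPM in cornea macrophages. Totals ran from 8677418 to 21756558 counts per library. Libraries of cornea and retina that share a title number may share a source, so p-values measure the spread between these libraries, which may be partly technical.

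Areg, Ereg, Hbegf and Tgfa are made as membrane-anchored precursors, are released by metalloproteases such as ADAM17, and bind the epidermal growth factor receptor, which drives the division and migration of epithelial cells, in the cornea as elsewhere. VEGF-A acts on endothelial cells through VEGF receptors and neuropilins and is the main driver of vessel sprouting, while VEGF-B binds VEGF receptor 1. PDGF-A and PDGF-B act on mesenchymal cells and on the pericytes that cover vessels. IGF-1 supports growth and survival of neurons and epithelia, its access limited by binding proteins. Oncostatin M is an interleukin-6 family cytokine that signals through gp130 (Il6st) paired with Osmr.

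Within 2 of these families the genes split between populations: Areg against Tgfa, and Vegfa against Vegfb. Their 130 bases before the transcription start are shown for that reason, from RefSeq on GRCm38.p6, 5′ to 3′ on the gene's strand. RefSeq's promoter table held 6 of the 10 genes, and these 4 had a window free of annotated exons. Capitals mark the cAMP response element TGACGTCA and its half-site TGACG, the TATA box TATAAA and the GC box GGGCGG, each on either strand.
Areg, chr5:91139469-91139598, plus strand: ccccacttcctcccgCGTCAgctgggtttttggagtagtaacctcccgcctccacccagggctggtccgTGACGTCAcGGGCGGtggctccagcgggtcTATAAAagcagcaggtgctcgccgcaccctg
Tgfa, chr6:86195092-86195221, plus strand: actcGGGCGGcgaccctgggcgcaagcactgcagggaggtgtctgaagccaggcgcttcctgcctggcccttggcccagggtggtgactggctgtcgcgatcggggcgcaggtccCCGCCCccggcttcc
Vegfa, chr17:46032378-46032507, minus strand: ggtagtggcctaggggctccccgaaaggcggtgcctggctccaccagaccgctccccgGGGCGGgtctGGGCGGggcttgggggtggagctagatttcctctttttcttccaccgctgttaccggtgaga
Vegfb, chr19:6987652-6987781, minus strand: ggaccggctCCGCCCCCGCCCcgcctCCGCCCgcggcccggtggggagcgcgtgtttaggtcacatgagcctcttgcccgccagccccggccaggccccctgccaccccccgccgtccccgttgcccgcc

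The Areg window holds a full TGACGTCA at -61 from the start and a TATAAA at -31, with a further half-site at -115. Among 32817 RefSeq promoter windows of 250 upstream bases, 1.5% hold TGACGTCA, 17.7% its half-site, which is part of the full element, 12.4% TATAAA and 32.7% GGGCGG. The Tgfa, Vegfa and Vegfb windows hold GGGCGG (at -126 and -15, at -72 and -62, and at -121, -115 and -104) and none of the other 3 motifs. Vegfb also holds GCGNGGGCG, an EGR motif found in 4.7% of windows, at -120, where it overlaps the GC boxes. The AP-1 motif TGANTCA (6.8% of windows) and the hypoxia response core ACGTG (16.6%) were also searched and lie in none of the 4 sequences shown. A further RefSeq start of Vegfa, whose window overlaps a Vegfa exon and is not shown, has ACGTG at -211, TGACG at -209 and GGGCGG at -158. These matches describe the letters of these windows and no binding.

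Cornea macrophages held the highest mean of 8 of the 10 genes. For Areg, Ereg, Hbegf, Vegfa, Pdgfa, Igf1 and Osm their 4 libraries overlapped no other population, whereas for Pdgfb they overlapped both microglia. How many of all genes were highest in the cornea, or lay there without overlap, was not counted, so these counts only describe the members. Tgfa was highest in brain microglia, and Vegfb in the microglia. Against retinal microglia, cornea macrophages had 6 of the 9 tested genes higher and 2 lower (Tgfa and Vegfb) by edgeR's quasi-likelihood test at an adjusted p under 0.05, where 30.9% of all genes were called higher and 35.1% lower. Against brain microglia 7 were higher and 2 lower, beside 33.8% and 33.1% of all genes. Against bone marrow monocytes all 9 tested genes were higher, beside 32.2% higher and 31.1% lower overall. Retinal microglia exceeded brain microglia in 1 gene (Igf1) and were lower in 1 (Hbegf), beside 6.95% and 3.6% of all genes. Against monocytes, retinal microglia were higher in 7 genes and lower in 0, beside 32.2% and 27.1%, and brain microglia were higher in 6 and lower in 0, beside 28.5% and 27.4%. The members were chosen with earlier results of these data known, so the numbers of calls describe them and are no test of the group.

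**Figure D1:**
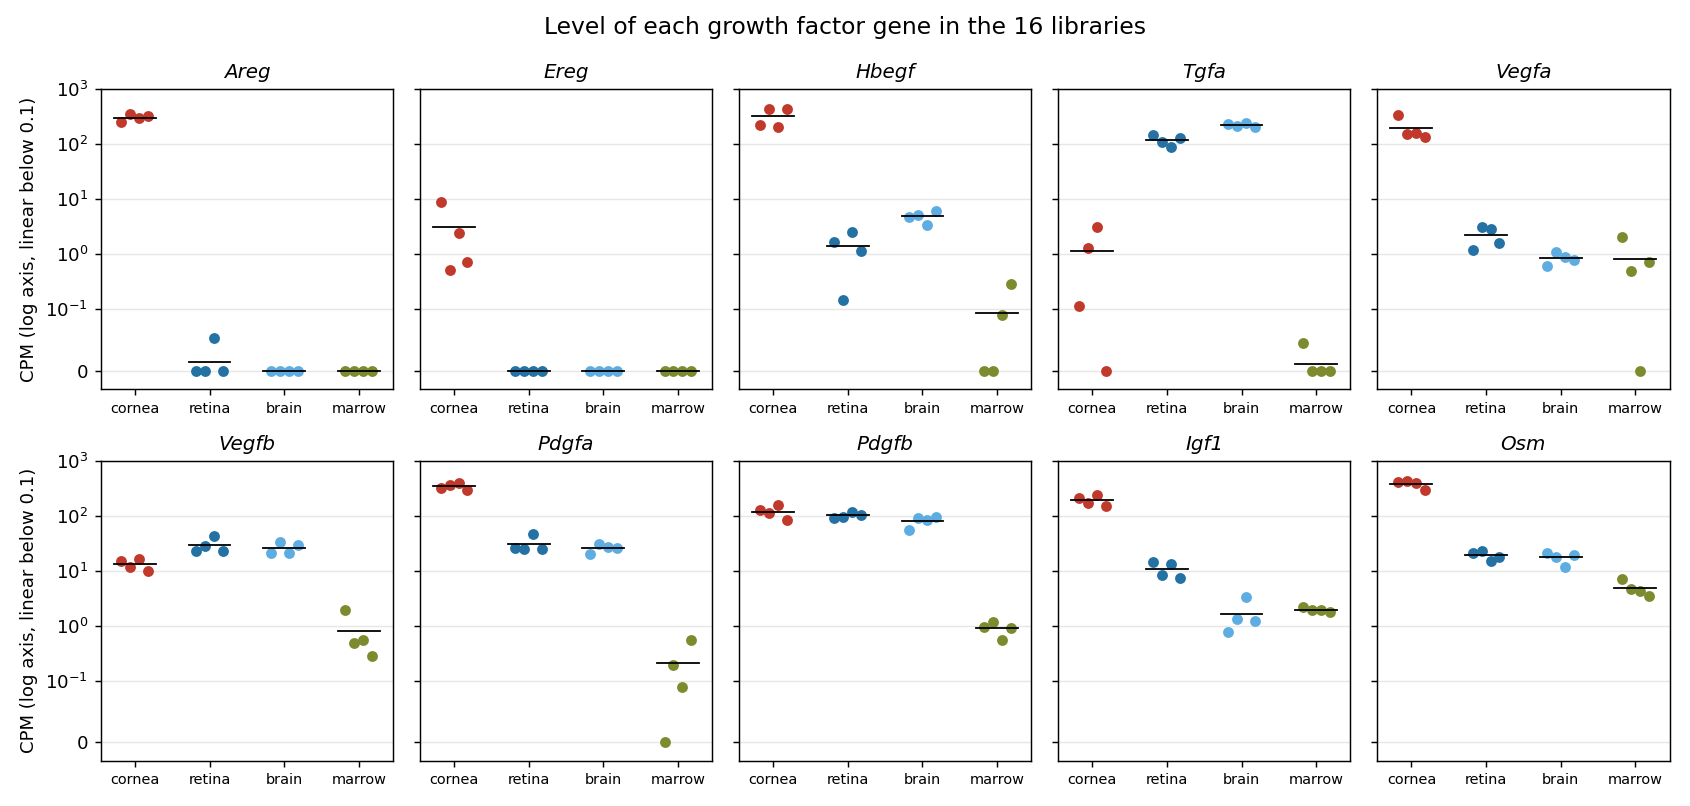
Level in CPM of each of the 10 genes in every library (points; 4 per population) with the population mean (line), on an axis that is logarithmic above 0.1 and linear below. Cornea libraries of Areg (251 to 344 CPM) stand against at most 0.0539 CPM elsewhere, whereas Tgfa lies between 88.9 and 236 CPM in the 8 microglia libraries and at or below 3.15 CPM in the cornea.

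The median log2 difference of the members, with groups at 0 set to their bound and genes at 3 counts or fewer in both groups left out, was 4.15 for cornea minus retina, 4.42 for cornea minus brain and 7.02 for cornea minus marrow (9 genes each). It was 0.21 for retina minus brain, 4.40 for retina minus marrow and 5.24 for brain minus marrow (8 genes each). Members were chosen with earlier results of these data known, so these medians only describe the members. Areg, Hbegf, Tgfa and Pdgfa, with 0, 5, 1 and 11 counts in marrow, passed the filter through other populations. Medians over all genes tested lay between -0.12 and 0.12 in these 6 comparisons. Another list separated the cornea from the rest in the same way: immediate-early and dissociation genes summed to 25820 to 36850 CPM in cornea libraries and to 720 to 2816 CPM in the other 12. Of its 16 genes, 15 were higher in the cornea than in either microglia and 14 than in monocytes. Of all genes, 30.9%, 33.8% and 32.2% were higher in the cornea than in retina, brain and marrow. The heat shock genes Hspa1b (8258 CPM) and Hspa1a (7185 CPM) led the list. The part of tissue handling in the growth factor levels was not tested and cannot be told apart from the population, since the cornea was the one tissue for which digestion is described.

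Areg, amphiregulin, a ligand released during epithelial injury (chromosome 5, 91139599 to 91148432, plus strand), was counted in cornea macrophages and hardly at all elsewhere. Its cornea libraries held 251, 344, 291 and 318 CPM, a mean of 301 ± 39.8 (SD, n = 4). One read was counted over the 4 retinal libraries and 0 over the 8 brain and marrow libraries, so the groups did not overlap. The cornea level was at least 4610-fold higher than in brain microglia and at least 5810-fold higher than in monocytes, taking 3 counts over a whole group as the floor. Against retinal microglia the ratio was 23300, with an exact 95% counting interval from 4190 to 922000 and an edgeR adjusted p of 3.61e-11.

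Areg is also made by group 2 innate lymphoid cells, regulatory T cells, mast cells and basophils, whose markers were looked at in the cornea libraries. Cd3g and Cpa3 had 0 counts there, Cd3e had 1 count over the 4 libraries and Gata3, which defines group 2 innate lymphoid cells and some T cells, averaged 0.558 CPM. The summed lymphocyte list, 286 to 418 CPM in the cornea against 1.07 to 75.4 CPM elsewhere, consisted mostly of Il7r (292 CPM) and Cd4 (48.2 CPM); the part of such cells in the Areg level was not tested. Mast cell and basophil markers summed to 0.385 to 4.54 CPM, with 6 of 10 at 0.

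Hbegf, heparin-binding EGF-like growth factor, which speeds the closure of epithelial wounds, lies on chromosome 18. The cornea libraries held 217, 424, 205 and 426 CPM, a low pair and a high pair. Retinal libraries held 1.66, 0.147, 2.585 and 1.17 CPM, brain libraries 4.715, 5.185, 3.37 and 6.17 CPM, and marrow libraries 0, 0, 0.0913 and 0.284 CPM. No cornea library overlapped any other population, and the log2 difference was 7.87 (SE 0.53) from retina, 6.02 (SE 0.48) from brain and 11.68 (SE 0.71) from marrow, with edgeR adjusted p of 1.06e-09, 8.54e-09 and 2.57e-10. Hbegf in retinal microglia exceeded that in monocytes by log2 3.81 (SE 0.92; adjusted p = 0.00191), though the libraries overlapped, and brain microglia did so by 5.66 (SE 0.80; adjusted p = 1.13e-05) without overlap. With 5 counts in all, marrow set these folds loosely: without marrow library 4 the log2 differences were 13.27 for cornea, 5.40 for retina and 7.25 for brain, and without marrow library 1 they were 11.04, 3.17 and 5.02. Without the 3 libraries whose titles lack a letter b, cornea minus retina was 8.95 and retina minus marrow 2.87. A difference between the microglia was also called: Hbegf was lower in retina than in brain by a log2 difference of -1.85 (SE 0.49; edgeR adjusted p = 0.0234), at 101 against 225 counts in all. Without the letter b libraries it was -2.81 (adjusted p = 0.00831). The call over all libraries was lost without brain library 4 (adjusted p = 0.0731) or retina library 4 (0.0634), with lane as a term (0.502), in limma voom (0.0956) and in a fit of these 8 libraries alone (0.0795).

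Ereg, epiregulin, the neighbour of Areg on chromosome 5 (91074622 to 91093646, plus strand), was rare. Cornea libraries held 77, 6, 31 and 11 counts, or 8.73, 0.511, 2.39 and 0.731 CPM, and the other 12 libraries held 0. That places the cornea at least 65.6-fold above retina, at least 38.9-fold above brain and at least 49-fold above marrow. Cornea library 1 held 77 of the 125 counts, and without it the bounds were 30.8, 18.2 and 23-fold. Ereg levels were uneven, and corneal epithelial markers (Krt12, Aldh3a1 and 10 others) summed to 1736, 473, 800.5 and 260 CPM in the same 4 libraries. The library highest in Ereg was the highest in epithelial markers, and the 3 genes most like Ereg over the 16 libraries were the epithelial genes Cldn4, Calml3 and Dsp (Pearson r of 0.995, 0.995 and 0.99). The part of epithelial cells in the Ereg reads was not tested.

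Tgfa, transforming growth factor alpha (chromosome 6, 86195223 to 86275719, plus strand), had the opposite pattern to Areg, Hbegf and Ereg, ligands of the same receptor. Egf, another such ligand and far rarer, was likewise lower in the cornea (0.173 CPM) than in retina (2.21 CPM) and brain (1.69 CPM). Retinal libraries held 147, 109, 88.9 and 127 CPM and brain libraries 227, 212, 236 and 201 CPM, while cornea libraries held 0.113, 1.28, 3.15 and 0 CPM and marrow libraries 1 count in all. Cornea macrophages were lower by a log2 difference of -6.65 (SE 0.55; edgeR adjusted p = 1.38e-08) from retinal and -7.54 (SE 0.57; adjusted p = 3.56e-09) from brain microglia. Cornea library 3 held 41 of the 57 cornea counts, and without it these differences were -8.01 and -8.91. Against monocytes the ratio was 6660 for retina (95% counting interval 1200 to 263000), 12500 for brain (2240 to 492000) and 67.1 for cornea (11.6 to 2700), the last resting on 57 counts and lost in limma voom (adjusted p = 0.0621).

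Every brain library exceeded every retinal library in Tgfa, with means of 219 ± 15.6 and 118 ± 25 CPM (SD, n = 4). In the fit of all 16 libraries this log2 difference of -0.89 (SE 0.40) was not called (edgeR adjusted p = 0.176). It was called in a fit of the 8 microglia libraries alone (-0.88, adjusted p = 0.00396) and in limma voom (-0.92, adjusted p = 0.00415). Lane 2 carried the 4 retinal libraries and lane 3 the 4 brain libraries, so lane and tissue cannot be told apart for any retina-to-brain difference.

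Shares of the EGF receptor ligand family were computed on CPM per kilobase (kb) of gene length over Areg, Ereg, Hbegf, Tgfa, Btc, Epgn and Egf. Areg made up 59.3 to 73.2% and Hbegf 26.4 to 40.7% of the family in cornea libraries, and Tgfa at most 0.112%. In retinal microglia Tgfa made up 88.4 to 96.8% and in brain microglia 89.5 to 94.7%, where Hbegf made up 0.473 to 9.34% and 4.92 to 9.98%. The family sum was 301 to 462 CPM per kb in the cornea, 11.7 to 18 in retina and 26 to 29.1 in brain. Monocytes reached at most 0.324 CPM per kb, too few reads for a share. With gene lengths from GENCODE vM21, Areg made up 74.8 to 84.5% and Hbegf 15 to 25.2% in the cornea, and Tgfa 94.5 to 97.7% in retina and 95.3 to 97.8% in brain.

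**Figure D2:**
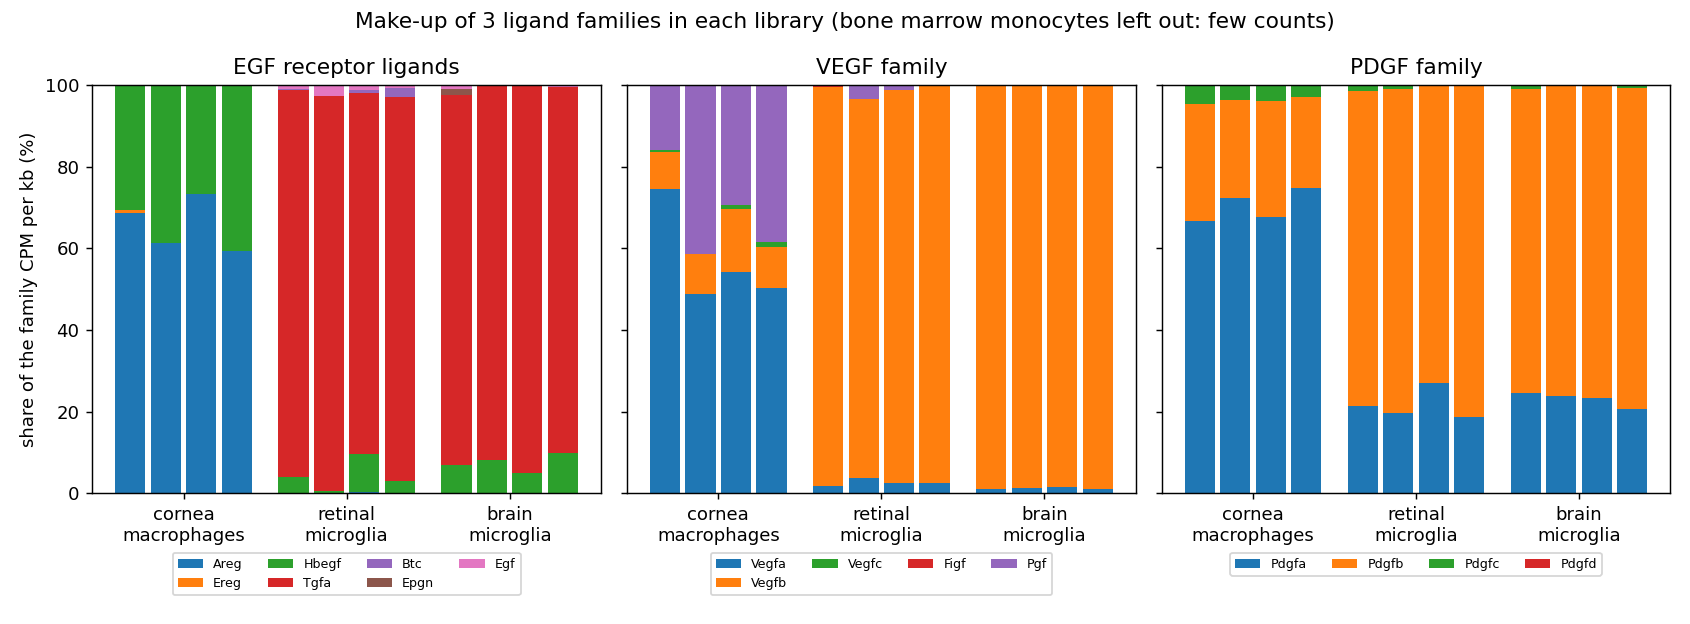
Stacked share (%) of each ligand in its family's summed CPM per kb, by the gene lengths in the file, 1 bar per library, for cornea macrophages, retinal microglia and brain microglia. Areg and Hbegf fill the cornea bars of the EGF receptor ligands and Tgfa the microglia bars; Vegfb makes up at least 92.8% of the VEGF family in microglia, and Pdgfa 66.8 to 74.7% of the PDGF family in the cornea.

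Vegfa, the sprouting factor of vessels (chromosome 17, 46016993 to 46032369, minus strand), was far higher in the cornea than elsewhere. Cornea libraries held 336, 154, 155 and 136 CPM, retinal libraries 1.18, 3.13, 2.91 and 1.61, brain libraries 0.6, 1.12, 0.893 and 0.798, and marrow libraries 2.08, 0.498, 0 and 0.71. Cornea library 1 stood apart from the other 3 and was also the highest in epithelial markers. Epithelial cells can make Vegfa too, and their part was not tested. Without that library the log2 difference remained 6.03 from retina, 7.42 from brain and 7.27 from marrow, against 6.44 (SE 0.52), 7.84 (SE 0.58) and 7.65 (SE 0.56) with it. Without marrow library 1, cornea minus marrow was 8.81. The edgeR adjusted p with all libraries was 8.84e-09, 3.1e-09 and 3.12e-09. Among the other 3 populations Vegfa was not called in any pair, although each retinal library exceeded each brain library (log2 difference 1.40, SE 0.59, adjusted p = 0.151). Retina minus marrow, 1.21 with adjusted p = 0.0663, was called without marrow library 1 (2.37, adjusted p = 0.00403), without retina library 1, in DESeq2, without the filter and with total counts only.

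Vegfb (chromosome 19, 6982473 to 6987651, minus strand), a VEGF receptor 1 ligand linked to metabolism more than to sprouting, ran the other way among the tissue cells. Cornea libraries held 15.2, 11.7, 16.6 and 10.2 CPM, retinal libraries 23.1, 28.8, 42.55 and 23.2, brain libraries 20.8, 33.55, 21.5 and 29.2, and marrow libraries 1.99, 0.498, 0.548 and 0.284. The cornea libraries lay below all microglia libraries and above all marrow libraries. The difference was small against the microglia: -1.13 (SE 0.36; edgeR adjusted p = 0.0108) from retina and -0.97 (SE 0.36; adjusted p = 0.0253) from brain on the log2 scale. The first was lost without the 3 libraries whose titles lack a letter b (adjusted p = 0.0698), and the second without brain library 2 or 4 or cornea library 2 or 4 (adjusted p 0.0524 to 0.0753). Against marrow, log2 differences of 3.86 for cornea, 4.99 for retina and 4.83 for brain were called (adjusted p of 6.74e-07, 5.27e-08 and 6.62e-08). Without marrow library 1, the highest of the 4, they were 4.91, 6.05 and 5.89.

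Per kb, Vegfa made up 48.7 to 74.6% of the VEGF family in the cornea, placental growth factor (Pgf) 15.9 to 41.3% and Vegfb 9.03 to 15.5%. In microglia Vegfb made up 92.8 to 97.7% (retina) and 98.5 to 99% (brain), from a smaller family sum of 14.7 to 27.6 and 13.1 to 21.2 CPM per kb against 63 to 105 in the cornea. The shares of Vegfa and Vegfb did not overlap between cornea and microglia libraries, and with vM21 lengths Vegfa made up 60.1 to 80.5% in the cornea and Pgf 9.35 to 27.7%.

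Pdgfa (chromosome 5, 138976014 to 138997370, minus strand) was higher in the cornea than in every other population. Cornea libraries held 319.6, 361, 389 and 296 CPM, retinal libraries 26.5, 25.35, 46.65 and 25.5, brain libraries 19.9, 30.3, 27.6 and 26.1, and marrow libraries 0, 0.199, 0.0913 and 0.568. Cornea macrophages were 11-fold above retina, 13.15-fold above brain and 1668-fold above marrow (edgeR log2 differences of 3.46, 3.72 and 10.70, SE 0.29, 0.29 and 0.45; adjusted p of 1.31e-08, 6.13e-09 and 3.43e-12). The marrow value rests on 11 counts, 8 of them in library 4: the log2 difference of cornea minus marrow was 12.06 without that library and 10.05 without marrow library 1, of retina minus marrow 8.60 and 6.60 against 7.24, and of brain minus marrow 8.35 and 6.34 against 6.99. Exons of Pdgfa share 813 bases with 6330403L08Rik on the opposite strand, which averaged 17.65 CPM in the cornea and 0.0747 to 3.94 CPM elsewhere, and reads over those bases cannot be told apart, the strand setting of the counting being unknown here. Exons of Ereg and Tgfa likewise share 141 and 118 bases with the opposite-strand genes Gm19610 and Gm43917.

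Pdgfb, the pericyte-recruiting chain (chromosome 15, 79995874 to 80014977, minus strand), was the growth factor most evenly held by the tissue populations. Cornea libraries held 128, 112, 154 and 82.4 CPM, retinal libraries 89.8, 96.1, 117 and 103, brain libraries 56.2, 90.3, 84.4 and 93.4, and marrow libraries 0.949, 1.2, 0.548 and 0.923. All 3 tissue populations overlapped and lay far above the monocytes, by log2 differences of 7.02, 6.79 and 6.47 (SE 0.28, 0.27 and 0.27; edgeR adjusted p of 1.43e-12, 2.5e-12 and 2.94e-12). The cornea-to-retina difference of 0.23 (SE 0.19) was not called (adjusted p = 0.307), and the cornea-to-brain difference of 0.55 (SE 0.19) was, at adjusted p = 0.0186. The latter was 0.15 with lane as a term (adjusted p = 0.644), 0.02 within lane 3 (0.955), where the cornea is its library 4, the lowest of the 4 for Pdgfb, and lost without brain library 1, cornea library 1 or cornea library 3 (0.0544 to 0.0996) and without the 3 libraries lacking the letter b (0.0612).

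The direction of Pdgfb between cornea and microglia also turned with the scaling. With total counts in place of TMM factors it was -0.56 from retina (adjusted p = 0.0161) and -0.11 from brain. The cornea libraries had TMM factors of 0.661 to 0.705 and the other 12 of 1.07 to 1.25, and total counts moved the median of all genes to -0.92, -0.67 and -0.67 in the cornea's comparisons with retina, brain and marrow, to 0.17 for retina minus brain and to 0.25 for retina minus marrow. Pdgfb from retina then still lay above that median. No other called member difference turned its sign with the scaling.

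Pdgfa and Pdgfb exchanged their order between cornea and microglia. Per kb, Pdgfa made up 66.8 to 74.7% and Pdgfb 22.3 to 28.6% of the PDGF family in the cornea, while Pdgfb made up 72.9 to 81.1% in retina and 74.3 to 78.7% in brain. Pdgfd had 0 counts in all 16 libraries, and Pdgfc made up 2.98 to 4.68% in the cornea. With vM21 lengths Pdgfa made up 73 to 80.1% in the cornea, and Pdgfb 65.3 to 75.1% in retina and 66.9 to 72.2% in brain.

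Igf1 (chromosome 10, 87858265 to 87937042, plus strand), a survival factor for neurons and epithelia, was high in the cornea and separated the microglia. Cornea libraries held 207, 171.5, 239 and 151 CPM, retinal libraries 14.3, 8.35, 13.5 and 7.49, brain libraries 0.772, 1.32, 3.37 and 1.23, and marrow libraries 2.26, 1.99, 1.92 and 1.775. Cornea exceeded retina 17.7-fold, brain 117-fold and marrow 95.6-fold (log2 differences 4.15, 6.87 and 6.58, SE 0.31, 0.37 and 0.36; edgeR adjusted p of 3.15e-09, 4.48e-11 and 5.75e-11). Retinal microglia held 6.585-fold more than brain microglia, without overlap (log2 2.72, SE 0.34; adjusted p = 5.01e-05). This call held in all 16 alternatives run, at 2.26 to 3.27 with adjusted p of at most 0.0112. None of them can separate lane from tissue, since the retinal libraries ran in lane 2 and the brain libraries in lane 3. Photoreceptor markers summed to 3829, 2411, 857 and 8028 CPM in retinal libraries 1 to 4, and their part was not tested. Igf1 was highest in retinal libraries 1 and 3, those whose titles lack a letter b. Corneal stromal markers, of cells that can also make Igf1, summed to 1441, 1550, 2679 and 2287 CPM in cornea libraries 1 to 4 and to at most 2.49 CPM elsewhere, and their part was not tested either. Brain microglia and monocytes overlapped and were not called (adjusted p = 0.537).

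Osm, oncostatin M (chromosome 11, 4236420 to 4241026, plus strand), was counted in every library and was highest in the cornea, at 402, 423.5, 391.8 and 296 CPM. Retinal libraries held 21.1, 22.5, 14.9 and 18.1 CPM, brain libraries 21.35, 17.8, 11.7 and 19.7, and marrow libraries 7.23, 4.78, 4.29 and 3.48. The 4 marrow libraries lay below all microglia libraries, and these below all cornea libraries. Cornea exceeded retina 19.7-fold, brain 21.4-fold and marrow 75.15-fold (log2 differences 4.30, 4.42 and 6.23, SE 0.24, 0.24 and 0.26; edgeR adjusted p of 7.44e-11, 5.46e-11 and 3.52e-12). Both microglia exceeded monocytes by log2 1.93 and 1.81 (SE 0.23 each; adjusted p of 1.9e-06 and 3.89e-06) and did not differ by the test from each other (0.12, SE 0.22, adjusted p = 0.805).

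**Figure D3:**
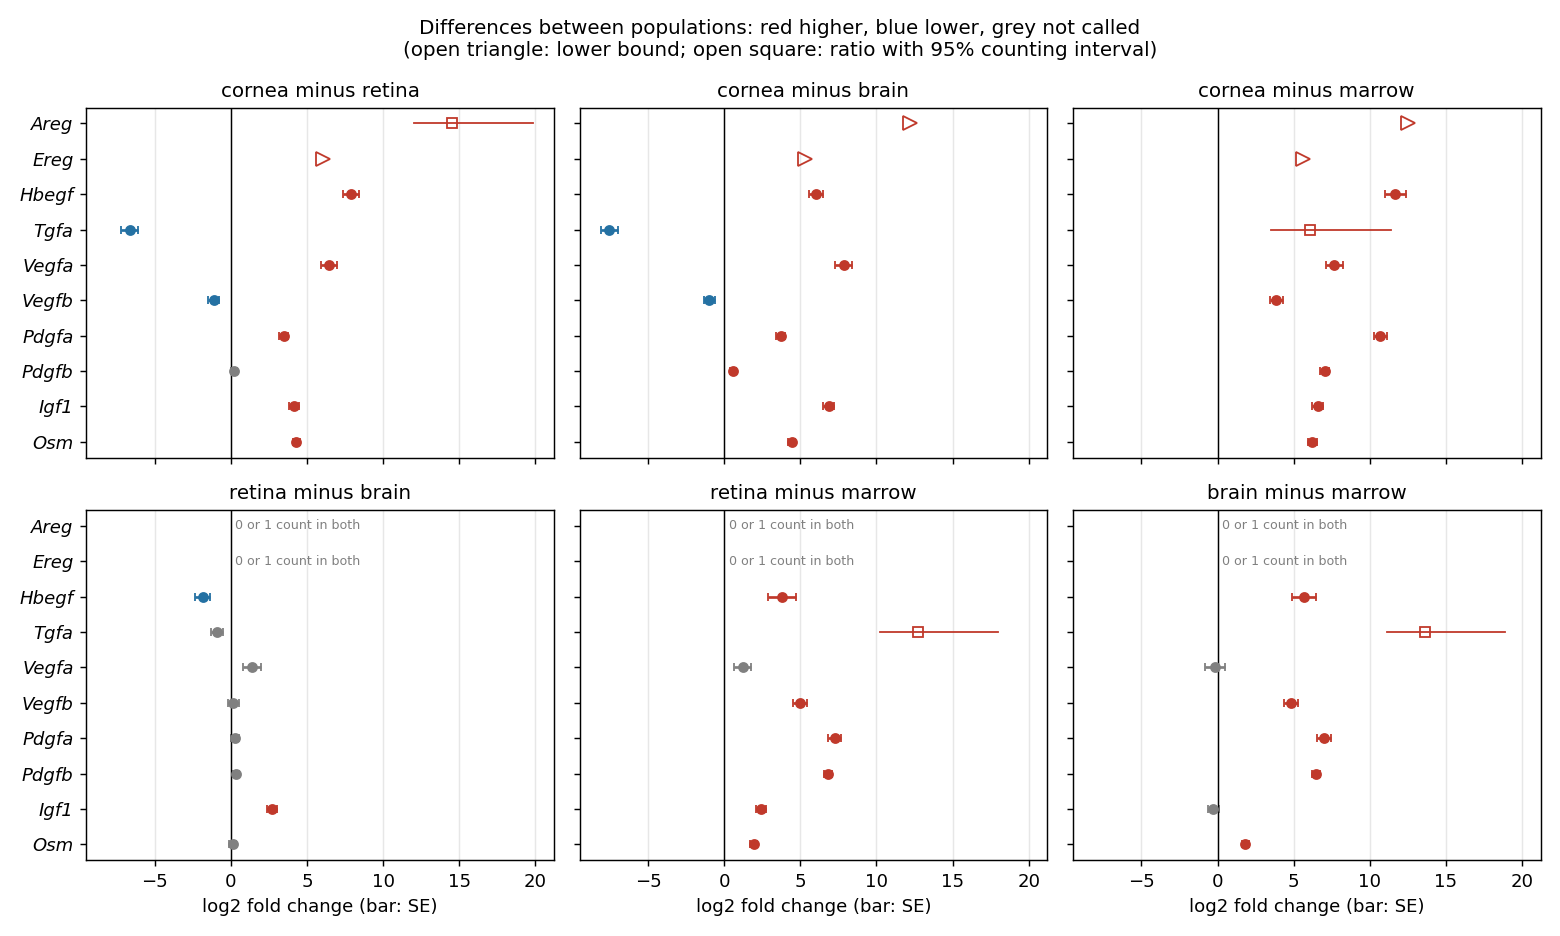
Log2 difference between 2 populations for each of the 10 genes, 1 panel per comparison; points are edgeR estimates with SE, triangles lower bounds against 0 counts, squares ratios to 1 count with their 95% counting interval. Tgfa and Vegfb lie left of 0 in the 2 cornea-to-microglia panels, and in the retina-to-brain panel the called genes are Igf1 (2.72) and Hbegf (-1.85).

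Lanes could be compared for 5 of the 6 pairs of populations, but with a single cornea library in lane 3 and a single marrow library in lane 2. A lone library was taken to vary like the other groups, so those fits describe that library. Cornea minus retina within lane 2, with 3 and 4 libraries, had 6 members higher and 2 lower, beside 30.3% and 33.9% of all genes. With a lone library, cornea minus brain in lane 3 had 6 higher and 2 lower (27.2% and 29.3% of all genes), and cornea minus marrow had 9 higher in lane 2 (22.8%) and 8 in lane 3 (25.5%). The gene lost against marrow in lane 3 was Tgfa, at 0 counts there in both populations, and the one lost against brain was Pdgfb. Retina minus the lone marrow library in lane 2 had 7 higher (20.5% of all genes), and brain minus marrow within lane 3, with 4 and 3 libraries, had 6 (28%).

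Per kb of gene length, used here to set genes beside each other, the order of the factors differed among the populations. In the cornea Areg led with 248 ± 32.8 CPM per kb, above Osm (167 ± 24.8), Hbegf (134 ± 52.1) and Pdgfa (109 ± 13.4), where the ranges of Osm, Hbegf and Pdgfa overlapped from 1 gene to the next. Vegfa (45.5) and Pdgfb (40.8) overlapped, followed by Igf1 (19.4) and Vegfb (8.36) without overlap, and by Ereg (0.749) and Tgfa (0.132), which overlapped. In retinal microglia Pdgfb led (34.8 ± 4.07) with no overlap with the next, Vegfb (18.3), Tgfa (13.7), Pdgfa (9.94) and Osm (8.44), each overlapping its neighbour. Brain microglia had Pdgfb (27.8 ± 5.82) and Tgfa (25.4 ± 1.8) overlapping, ahead of Vegfb (16.4), Pdgfa (8.33) and Osm (7.76). Without division by length the leaders changed. Osm (378 CPM) then led the cornea, with Areg (301 CPM) at rank 4, and Tgfa led retinal (118 CPM) and brain microglia (219 CPM). The orders per kb rest on the lengths in the file. These differ from GENCODE vM21 for Hbegf (2373 against 4834 bases), Tgfa (8624 against 6490), Pdgfb (2918 against 4161) and slightly Vegfa. With vM21 lengths Hbegf in the cornea was 65.8 CPM per kb and lay below Pdgfa (109) without overlap, Tgfa in brain (33.8) stood above Pdgfb (19.5) without overlap, and Pdgfb in retina (24.4) overlapped Vegfb (18.3).

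Monocytes held little of any of the 10. Osm led there at 2.18 ± 0.71 CPM per kb without overlap, and every other member averaged at most 0.517 CPM per kb. Granulocyte markers, from 721 to 4492 CPM, and erythroid markers, from 375 to 2491 CPM, were highest in marrow library 1, which was also the highest of the 4 for Osm, Igf1, Vegfa and Vegfb; their part in those levels was not tested. In bulk samples such as these, fewer cells that express a gene and less RNA per cell cannot be told apart.

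**Figure D4:**
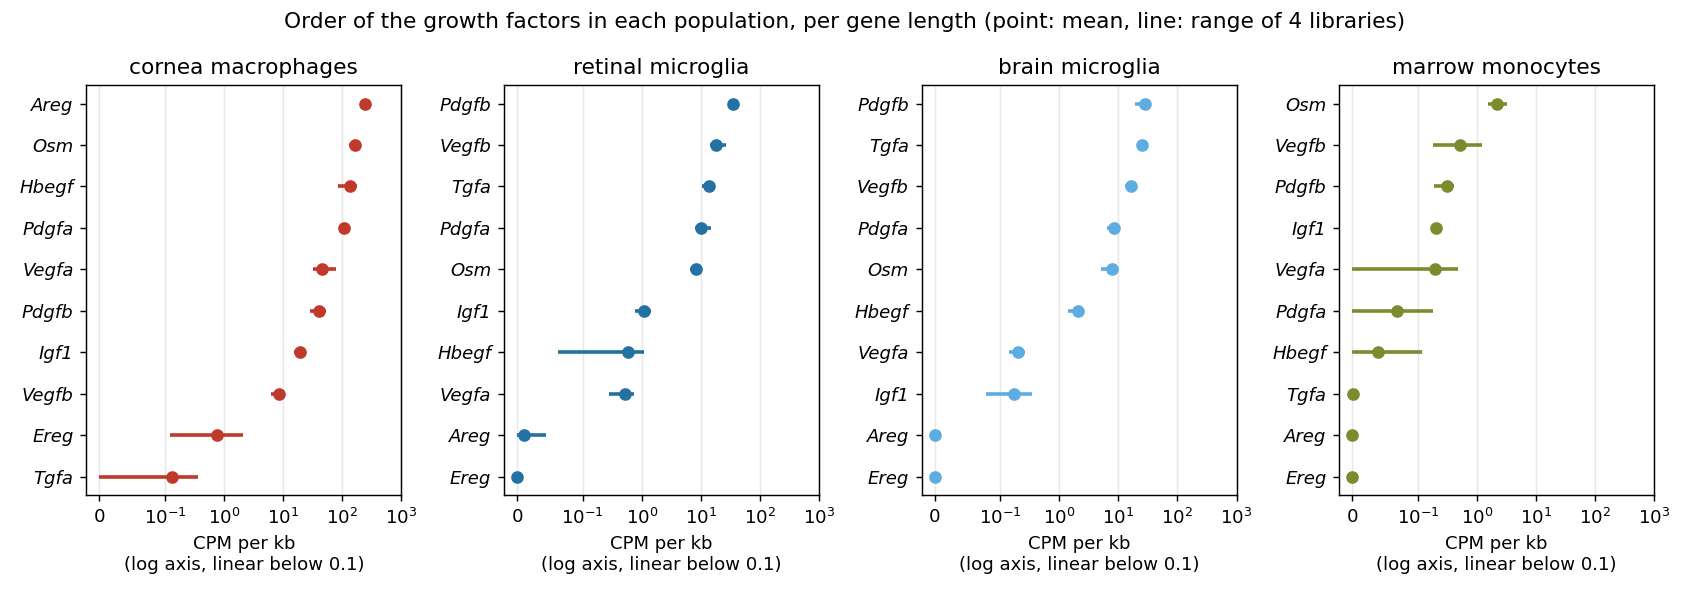
Members in order of their mean CPM per kb in each population (point), with the range of 4 libraries (line), by the gene lengths in the file, on an axis that is logarithmic above 0.1 and linear below. Areg, Osm, Hbegf and Pdgfa head the cornea panel at 109 to 248 CPM per kb, Pdgfb heads both microglia panels, and only Osm exceeds 1 CPM per kb on average in monocytes.

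Receptors for these factors were measured in the same cells. Of 17 receptor genes 13 were tested, and cornea macrophages had 7 higher and 3 lower against each of retina, brain and marrow, where 30.9 to 33.8% of all genes were higher and 31.1 to 35.1% lower; these shares apply to each list that follows. Egfr, the receptor of Areg, Hbegf, Ereg and Tgfa, held 17.2, 9.63, 7.08 and 9.9 CPM in the cornea, at most 0.322 CPM in a retinal library and 0 counts in brain and marrow. Its partner Erbb2 (5.1, 0.0852, 1.77 and 0 CPM) and Osmr (12.25, 4.43, 5.69 and 0.0664 CPM) did not pass the filter and ranked the cornea libraries in the order of the epithelial markers. Erbb4 did not pass either, and Erbb3, which binds neuregulins, averaged 6.36 CPM in the cornea and 10.5 in monocytes against at most 0.403 in microglia.

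Among VEGF receptors, Flt1 (VEGF receptor 1, which binds VEGF-A and VEGF-B) was highest in monocytes, at 26.4 ± 5.78 CPM against 0.265 to 2.19 elsewhere, and Kdr (VEGF receptor 2) averaged 6.87 to 9.84 CPM in the 3 tissue populations and 0.479 in monocytes. Flt4 did not pass the filter. The neuropilins, coreceptors of VEGF, split: Nrp1 stood at 363.5, 300.7, 417 and 447 CPM in cornea, retina, brain and marrow, whereas Nrp2 stood at 857, 28.6, 36 and 13.9. Nrp2 was higher in the cornea by log2 4.91, 4.57 and 5.94 (edgeR adjusted p of 6e-11, 1.1e-10 and 1.1e-11). Pdgfra and Pdgfrb averaged 3.01 and 8.98 CPM in the cornea and at most 1.33 CPM elsewhere, beside stromal markers that summed to 1441 to 2679 CPM in cornea libraries and at most 2.49 CPM in the other 12.

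Receptors of IGF-1 and the interleukin-6 family receptor chains Il6st and Lifr were counted in all populations. Osmr, the partner of Il6st for oncostatin M, had 0 counts in brain and marrow. Igf1r averaged 21.8, 11, 14.5 and 7.13 CPM in cornea, retina, brain and marrow, and Insr, the insulin receptor, 4.66, 22.8, 22.7 and 19. Igf2r, which clears IGF2, averaged 30.9 CPM in the cornea against at most 2.21. Il6st (gp130) averaged 150.4, 432, 378 and 163 CPM and Lifr 115, 175, 269 and 91.1 in the same order, so both microglia exceeded the cornea (edgeR log2 differences of cornea minus retina of -1.52 and -0.60, adjusted p of 1.3e-06 and 0.019; cornea minus brain -1.33 and -1.23, adjusted p of 5.8e-06 and 8.7e-05).

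Enzymes that release or activate the factors were higher in the cornea than in the other populations for most of the list. Of 12 genes 10 were tested, with 8 higher and 1 lower against either microglia and 8 higher and 2 lower against monocytes. Adam17, the main sheddase of Areg, Tgfa and Hbegf, averaged 782 ± 73 CPM against 248, 326 and 200.5, and Rhbdf2 (iRhom2), which carries ADAM17 to the cell surface, 339 ± 76 CPM against 26.6, 22.3 and 71.5. Adam10 was the gene lower in the cornea in all 3 comparisons, at 154.5 CPM against 483, 624 and 318. Plau (urokinase), Mmp14 and Furin averaged 514, 551 and 277 CPM in the cornea and at most 28.1, 47.5 and 77.9 CPM elsewhere.

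Relatives of the members showed where the families extend. Of the other VEGF and PDGF ligands, Pgf (36 ± 9.53 CPM) and Pdgfc (30.7 ± 8.11 CPM) were higher in the cornea than in all 3 others, with at most 0.405 and 1.45 CPM there, and 3 did not pass the filter. Of the interleukin-6 family, Il6 (113 ± 36.7 CPM), Clcf1 (59.1 ± 14.8) and Lif (34.9 ± 9.73) were higher in the cornea than in each other population. Lif had 0 counts in both microglia, while Clcf1 averaged 28.9 and 25.2 CPM and Il6 8.05 and 9.1 CPM there. The neuregulins Nrg1 (8.64 ± 1.15 CPM) and Nrg2 (5.62 ± 1.13 CPM) were highest in monocytes, and Egf and Btc stayed under 2.3 CPM in every population mean.

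Binding proteins of IGF-1 accompanied it in the cornea. Of 8 genes 5 were tested and all 5 were higher in the cornea in each of its 3 comparisons, led by Igfbp4 (182 ± 30.1 CPM against 11.7 to 33.7) and Igfbp2 (116 ± 33.2 CPM against at most 0.404). Stromal markers summed to 1441 to 2679 CPM in the cornea libraries, and the part of stromal cells in these levels was not tested. Of 16 other repair-linked genes, most but not all of them growth factors, 10 were tested. In the cornea 6 were higher and 1 lower (Fgf1) against retina, 7 and 1 against brain, and 8 and 0 against marrow. Lgals3 (galectin-3, 4790 CPM), Thbs1 (thrombospondin-1, 722 CPM), Tgfb1 (398 CPM) and Hgf (33.2 CPM) were among the higher ones, whereas Grn (progranulin) did not differ by the test between cornea (1452 CPM) and either microglia (1741 and 1678 CPM).

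Regulators of growth factor transcripts were mixed. All 14 passed the filter, with 5 higher and 4 lower in cornea against retina, 6 and 4 against brain and 7 and 4 against marrow. Crem, of the family that binds the cAMP response element, averaged 203 ± 49.2 CPM in the cornea against 4.61, 7.05 and 4.74, while its relative Creb1 averaged 73.6, 73.2, 76.2 and 99 CPM in cornea, retina, brain and marrow and was not called in any of the 6 comparisons. Hif1a, the oxygen-sensitive activator of Vegfa, averaged 728.5 CPM against 204 to 227, and Vhl and Egln1, which lower its protein, were lower in the cornea (25.4 against 62.4 to 115 CPM and 21.8 against 47.5 to 63.5 CPM). Zfp36 (tristetraprolin), which destabilises short-lived transcripts, averaged 2288 CPM against 156 to 166, and is also 1 of the dissociation genes above.

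**Figure D5:**
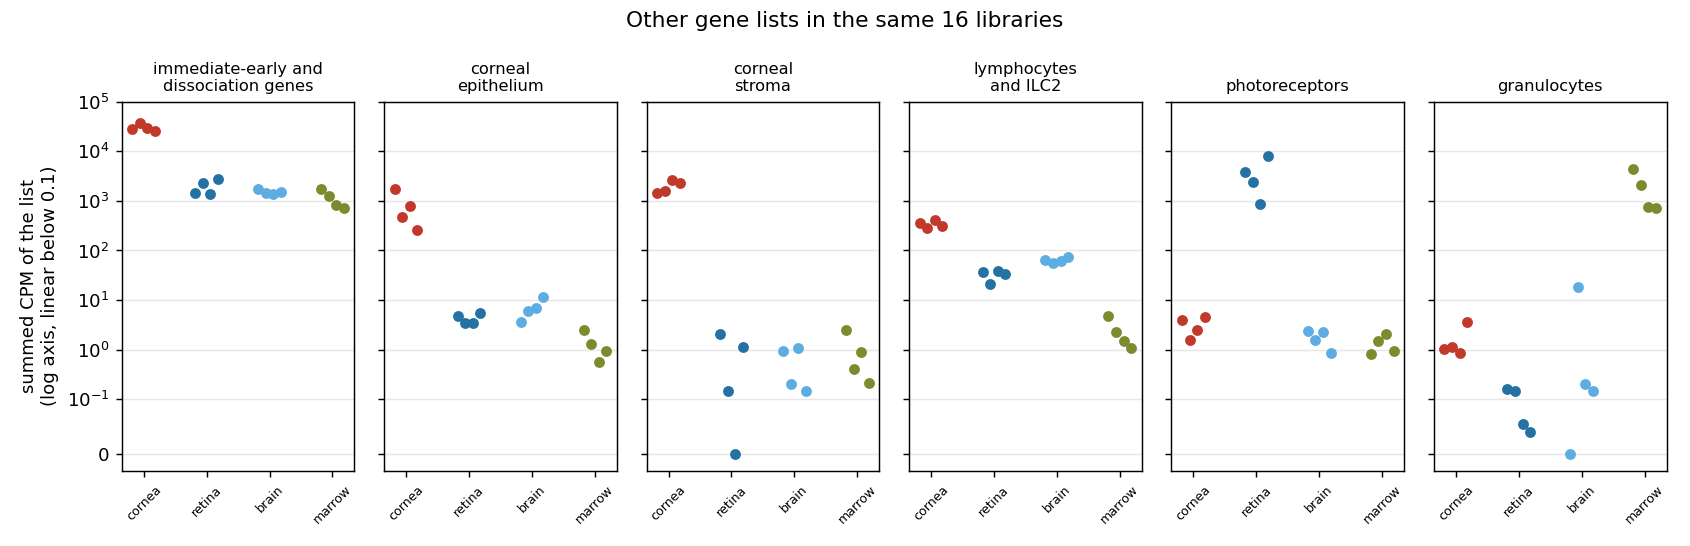
Summed CPM of 6 gene lists in every library (points, 4 per population), on an axis that is logarithmic above 0.1 and linear below. Immediate-early and dissociation genes reach 25820 to 36850 CPM in the cornea and at most 2816 CPM elsewhere, epithelial markers vary from 260 to 1736 CPM among cornea libraries, and photoreceptor markers from 857 to 8028 CPM among retinal ones.

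The genes most like each member over the 16 libraries, by Pearson's r on log2 CPM, are given as a description, since libraries of 1 population share most of the likeness. Areg was closest to Flrt3, Lrrc32 and Tm4sf19 (0.9994 to 0.9995), which averaged 809.6, 96.85 and 64.9 CPM in the cornea and at most 0.0135 CPM elsewhere. Tgfa was closest to Npnt (0.998) and P2ry13 (0.989), a purinergic receptor of microglia, then Gm37730. Vegfb was closest to Tmem37, C1qc and Cmklr1 (0.9831 to 0.9835), genes high in both microglia, and Pdgfb to Pld3 (0.995), Basp1 and Dst. Pdgfa went with C3ar1, Pxdc1 and Aig1 (0.988 to 0.989), Osm with the metallothionein Mt1 (0.992), Ralgds and Tmbim1, and Vegfa with Maff, Eif1 and Ccl3 (0.978 to 0.981). Igf1 went with Fabp3-ps1, P2ry2 and Spp1 (osteopontin; 0.977 to 0.987), and Hbegf with Atp6ap2, Fam83g and Slc35f5 (0.978 to 0.983).

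The median spread between libraries of 1 population was somewhat larger over the members than over genes at large, a difference that was not tested. Among genes averaging at least 10 CPM, the median coefficient of variation was 21.3% over 8 members and 17.3% over 8271 genes in the cornea, 26.2% over 6 and 19.7% over 8966 in retina, and 20.9% over 5 and 14.2% over 8589 in brain. The widest was Vegfa in the cornea (48.2%) and the narrowest Tgfa in brain (7.11%).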

How the data were processed

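Values are raw counts of reads per gene, as deposited by the authors: whole numbers without normalization, beside gene lengths in bases, per the file headers. The submitters' processing notes name CASAVA 1.8.2, Subread, featureCounts, limma and build GRCm38.p4; the sources used here do not give aligner settings, annotation release or strand, and the extraction text describes another tissue, so the kit is uncertain. Descriptions of the brain and marrow samples name retinal microglia, so title and source set the group. Members and lists were chosen with earlier results of these data known; 231 list genes were read out.

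Here edgeR 4.0.16 (R 4.3.3) fitted all 16 libraries with TMM factors, filterByExpr (minimum count 10) and population as the term; quasi-likelihood p-values were Benjamini-Hochberg adjusted over 15754 genes and called under 0.05. SE is the log2 difference divided by the root of F. CPM uses effective library sizes, and CPM per kb the file's lengths, which equal GENCODE vM21 (GRCm38, source of coordinates) for 6 of 10 genes. Groups at 0 counts are set to 3 counts, and intervals cover counting error at 95%. In 27 entries symbols had become dates (at most 0.223% of counts); they stayed out as named genes. No libraries were copies (chi-square per degree of freedom 12.15 to 104.8 over pairs).

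All 10 members, and list genes that were called, high per kb, or receptors, were named; likeness used log2 CPM with a prior count of 2. DESeq2 1.42.0, limma 3.58.1 voom, other scalings, no filter, lanes and left-out libraries were alternatives. The test was checked on simulated data.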

Additional observations from a re-analysis of the deposited data

Results flagged for a closer look

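Values that lay apart from the other 3 libraries of their population by Dixon's criterion at 95% were found in 5 of 35 groups of 4; chance gives about 1 in 20. Vegfa in cornea library 1 stood at 335.7 CPM, beside 135.9 to 154.9 CPM in the others. Pdgfa in retina library 3 stood at 46.65 CPM, beside 25.35 to 26.51 CPM. Vegfb in marrow library 1 stood at 1.988 CPM, beside 0.284 to 0.548 CPM. The remaining flags are single reads: Areg in retina library 3 (0.05386 CPM) and Tgfa in marrow library 1 (0.04518 CPM), where the other 3 libraries held 0.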

How the results depend on the processing

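Of 51 member differences, 36 kept their direction and side of the threshold in every alternative run; over all, 834 of 879 recomputed values did. Lost or gained calls stand in the report beside their genes, and these further ones were seen: Hbegf retina minus marrow was lost in limma voom (adjusted p = 0.0525), Tgfa retina minus brain was -6.80 with lane as a term, where the lane term is estimated from cornea and marrow libraries, and Igf1 brain minus marrow was called without brain library 3 (-0.83).

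Signs turned for Pdgfb with total counts only (cornea minus retina -0.56, cornea minus brain -0.11). With lane as a term, retina minus brain became -0.49 for Osm, -0.18 for Pdgfb and -0.96 for Vegfb, and brain minus marrow 0.37 for Vegfa, which was also 0.01 in DESeq2, 0.75 in limma voom and 0.98 within lane 3. Without the 3 libraries lacking the letter b, retina minus brain was -0.03 for Pdgfa and -0.02 for Vegfb. Leaving out 1 library each gave ranges for brain minus marrow Vegfa of -0.53 to 0.98, and for retina minus brain of -0.04 to 0.22 (Osm), -0.01 to 0.34 (Pdgfa) and -0.07 to 0.30 (Vegfb). Of these values, Pdgfb cornea minus retina was called (adjusted p = 0.0161) and the others were not; the cause was not tested.

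Counts of members called lower moved from 2 to 1 for cornea minus retina without the letter b libraries; with 1 library left out they ranged from 1 to 2 for cornea minus brain, 0 to 1 for retina minus brain and 0 to 1 for brain minus marrow. Counts of all genes moved with total counts only to 7532 lower in cornea than marrow, and 2922 higher and 8489 lower than retina. Retina minus brain had 316 higher and 147 lower with lane as a term, and 902 lower in DESeq2, 365 without the filter, 290 with total counts only, 325 without the letter b libraries and 329 to 490 with 1 library left out. Retina minus marrow had 3222 higher within lane 2.

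Whether the title ranges shared by brain and marrow libraries mark a pairing is not known. Correlations of their deviations were -0.009 and 0.033, which cannot decide it for so few libraries of different cells. With these ranges as a replicate block 6 members were called higher in brain, as in the same 4 libraries without it. The share of all genes called in these 4-library fits is not given here, so the count only describes the members. In the fit of all 16 libraries 28.5% of all genes were higher in brain. Igf1 was 0.17 with the block and 0.32 without. Of 40 ranks of members within a population, 17 changed without division by length and 6 with GENCODE vM21 lengths. The within-lane fits, the fit of the same 4 libraries, the vM21 lengths and the Ereg bounds without cornea library 1 were chosen after seeing the data.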
